A study of Mus musculus with 8 samples.

Results

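Heart muscle genes were followed through RNA-seq of mouse embryonic stem cells (ESCs) that lack normal Polycomb repressive complex 2 (PRC2), before and after differentiation towards a neural fate. The 10 genes were taken by symbol from a table of 36808 genes, and all 10 were found once. 5 encode transcription factors of heart development (Nkx2-5, Hand2, Mef2c, Tbx5 and Tbx20), and 5 encode proteins of the sarcomere, the contractile unit of striated muscle (Myl7, Myl4, Tnnt2, Myh6 and Actc1). At day 5, Nkx2-5, Hand2 and Tbx20 stood between 1.15 and 3.59 FPKM in the 3 PRC2 mutant libraries and at or below 0.200 FPKM in the wild-type library. The sarcomere genes were less uniform, and their summed value at day 5 was 0.858 FPKM in wild-type E14, 1.72 in Suz12GT, 8.74 in Suz12delta and 3.16 in Eednull. In ESCs the same sum was 5.21 FPKM in wild-type E14, 8.47 in wild-type CJ7, 5.45 in Suz12delta and 7.83 in Eednull.

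The study asked how PRC2 and its histone mark control gene expression when ESCs commit to a lineage. 8 libraries were analysed, 1 per condition, 4 from ESCs and 4 from cells collected at day 5 of differentiation to spinal motor neurons (SMNs), in which LIF was withdrawn and retinoic acid and a hedgehog pathway agonist were added. No value had a replicate check, no test was made, and every difference is one between 2 libraries. The ESC lines were grown on irradiated mouse embryonic fibroblasts, which were removed by brief plating before collection or differentiation.

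The wild-type ESC libraries were E14, of 129/Ola background, and CJ7, of 129/S background. The mutant ESC libraries were Suz12delta, a Suz12 truncation on C57/BL6, and Eednull, an Eed point mutant on BALB/cR1. At day 5 the libraries were E14, Suz12GT, Suz12delta and Eednull. Suz12GT is a gene trap line on 129/Ola whose SUZ12 protein is fused to β-galactosidase. An ESC library of Suz12GT was not analysed here. Each genotype is 1 cell line, and only E14 and Suz12GT share a background, so genotype, line and strain cannot be told apart for Suz12delta and Eednull. The labels describe CJ7 as prepared and sequenced together with a library whose name in the table is that of Eednull ESCs. By those names, comparisons of Eednull ESCs with E14, and of Eednull day 5 cells with Eednull ESCs, cross batches. So do those of CJ7 with E14 and of Suz12delta ESCs with CJ7.

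PRC2, whose core includes SUZ12 and EED, places the H3K27me3 mark on histones and holds developmental regulators silent in ESCs, often at promoters rich in CpG dinucleotides. NKX2-5, HAND2, TBX5 and TBX20 act early in the embryonic heart and are themselves transcription factors, while MEF2C and its relatives bind the promoters of many muscle genes. Contractile protein genes are switched on later, as cardiac muscle cells differentiate, and many carry CArG boxes, the sites of serum response factor.

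Sequences just before the start of transcription are shown for the 3 regulators above 1 FPKM in every mutant at day 5. They are also shown for Myl7 and Actc1, the 2 sarcomere genes with a CArG box there. They are from the RefSeq promoter table (assembly GRCm38.p6), which held 12 start sites for 9 of the 10 genes. Each run gives the 250 bases before the start, 5′ to 3′ on the gene's strand. For the 3 regulators, capitals mark CpG dinucleotides.
Hand2: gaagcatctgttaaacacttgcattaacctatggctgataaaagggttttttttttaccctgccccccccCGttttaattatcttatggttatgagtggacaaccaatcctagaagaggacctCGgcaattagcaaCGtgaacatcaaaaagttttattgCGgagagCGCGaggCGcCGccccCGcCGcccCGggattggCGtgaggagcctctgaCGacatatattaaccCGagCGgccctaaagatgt
Nkx2-5: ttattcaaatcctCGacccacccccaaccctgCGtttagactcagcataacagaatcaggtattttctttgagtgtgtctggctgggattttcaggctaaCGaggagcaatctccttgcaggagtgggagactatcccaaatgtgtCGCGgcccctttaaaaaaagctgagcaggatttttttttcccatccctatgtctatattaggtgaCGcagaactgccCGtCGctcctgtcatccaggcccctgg
Tbx20: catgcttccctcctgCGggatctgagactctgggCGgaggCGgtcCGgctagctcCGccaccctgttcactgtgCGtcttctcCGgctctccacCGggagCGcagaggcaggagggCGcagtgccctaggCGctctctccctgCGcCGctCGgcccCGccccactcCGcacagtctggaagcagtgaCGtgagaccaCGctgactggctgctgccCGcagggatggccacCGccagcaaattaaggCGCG
On NCBI build 37, the build of the expression table, these sequences matched exactly once each, at chr8:59799530-59799779 for Hand2 on the plus strand, at chr17:26978511-26978760 for Nkx2-5 on the minus strand and at chr9:24578748-24578997 for Tbx20 on the minus strand. All 3 end at, or 1 base from, the annotated start of the gene.

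For Myl7 and Actc1, capitals mark the CArG box.
Myl7: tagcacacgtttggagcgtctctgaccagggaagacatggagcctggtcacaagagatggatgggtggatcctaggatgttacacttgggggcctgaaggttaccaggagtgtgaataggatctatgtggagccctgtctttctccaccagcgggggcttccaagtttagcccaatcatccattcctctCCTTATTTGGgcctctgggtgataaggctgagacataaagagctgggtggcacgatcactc
Actc1: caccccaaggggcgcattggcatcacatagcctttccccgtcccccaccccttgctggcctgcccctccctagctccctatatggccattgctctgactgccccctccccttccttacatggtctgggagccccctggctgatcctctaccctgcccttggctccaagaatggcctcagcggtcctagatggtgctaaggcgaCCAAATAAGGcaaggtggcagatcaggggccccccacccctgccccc
These runs lie at chr11:5798786-5799035 and chr2:113878612-113878861 of NCBI build 37, both on the minus strand. That of Myl7 ends at the annotated gene start, and the RefSeq start of Actc1 lies 673 bases inside the annotated gene.

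The promoters of the regulators and of the sarcomere genes differed in CpG content, with exceptions on each side. Observed over expected CpG was 0.993 for Hand2, higher than in 94.0% of 32841 promoters, 0.749 for Tbx20 and 0.535 for Nkx2-5, against a median of 0.374 over all promoters. It was 0.234 for Myl7, 0.173 for Actc1 and 0.0938 for Myh6, all below that median. Myl4 was the exception among sarcomere genes at 0.920, with 23 CpG dinucleotides, where Hand2 had 15 and Tbx20 had 22. The 3 starts listed for Mef2c had 0.149, 0.484 and 0.261, and the 2 starts of Tnnt2 had 0.281 and 0.

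**Figure D1:**
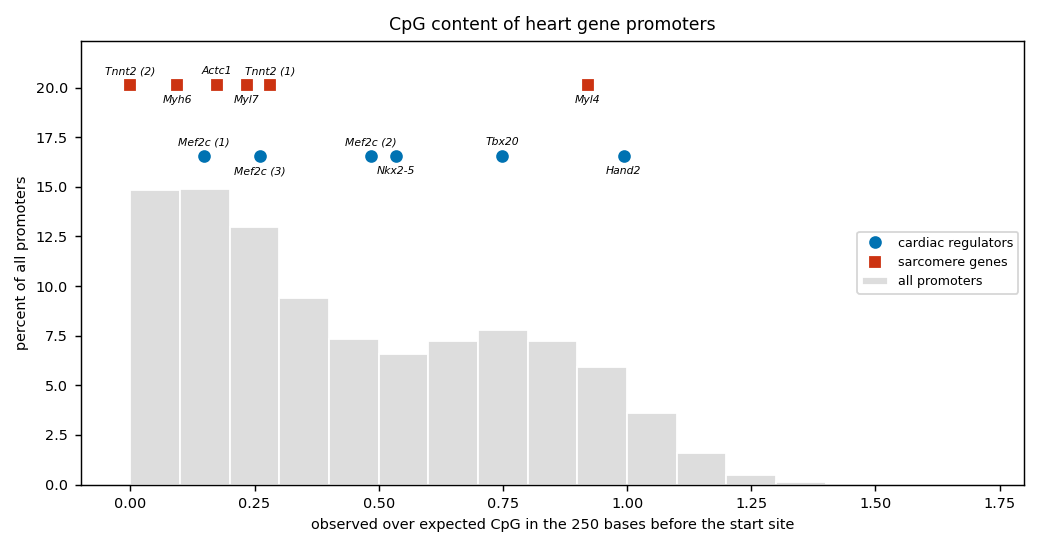
Observed over expected CpG in the 250 bases before each start (x axis, a ratio without unit) for all RefSeq promoters (grey bars, percent of promoters on the y axis) and for the heart genes (points, placed by x only, with start sites numbered where a gene has several). Hand2, Tbx20 and Nkx2-5 lie to the right of the median of 0.374, and 4 of the 5 sarcomere genes lie to its left.

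Short motifs were searched on both strands of the same windows, as a description of the letters present. A CArG box was found in the Myl7 window, 61 to 52 bases before the start, and in the Actc1 window, 47 to 38 bases before the start. The other windows of these genes, those of Myl4, Myh6 and Tnnt2 among them, held none, and 1.47% of all promoters held one. The GATA motif AGATAA was found in the Hand2 window and in that of 1 Tnnt2 start, and in 9.99% of all promoters. TATAAA was present at 2 Mef2c starts (12.4% of all promoters) and the T-box motif GGTGTG at 1 of them (16.3%). The NKX motif CACTTA (7.93% of all promoters) and the MEF2 box (1.69%) were in none of the windows of these genes.

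The values are FPKM, which scale the fragments of a gene by its length and by the size of the library, so levels of different genes can be compared. The table gives no read counts, the depth in reads is unknown and no counting interval can be given. FPKM summed to between 389165 and 797748 per library, between 21932 and 25636 genes were above 0, and the 10 highest genes took from 7.69% to 35.2% of the sum. All 10 heart genes were low in absolute terms. The highest value of any of them was 3.85 FPKM, and between 10900 and 15072 genes of each library stood above its highest heart gene. A value of exactly 0 is given as listed at 0, because in each library 0 to 5 genes had this value although all the others gave them 10 FPKM or more, and such a 0 may be a failed estimate. In cells measured in bulk, fewer cells of a type and less RNA per cell cannot be told apart.

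The targeted genes and the cell type markers were read in the same table. Suz12 stood at 41.3 FPKM in E14, 53.1 in CJ7, 6.21 in Suz12delta and 35.7 in Eednull ESCs, and at day 5 at 16.2 in E14, 10.3 in Suz12GT, 11.6 in Suz12delta and 17.6 in Eednull cells. Eed ranged from 18.8 to 50.9 FPKM in ESCs and from 11.1 to 15.9 at day 5. RNA from a fused, truncated or point-mutated gene can still be counted, so these levels do not check the genotypes. The summed FPKM of 8 ESC markers was 734 in E14, 774 in CJ7, 353 in Suz12delta and 681 in Eednull ESCs, and 9.18 to 28.6 at day 5, where Sox2 gave 20.7 of 21.5 in E14. The summed FPKM of 10 motor neuron differentiation markers was 158 in E14 at day 5, 131 in Suz12GT, 30.8 in Suz12delta and 25.2 in Eednull. 8 of the 9 motor neuron markers compared were lower by 2-fold or more in Suz12delta (median log2 ratio -2.62) and 8 in Eednull (-2.73), and 3 in Suz12GT (-0.11). Of all genes, 7.76%, 9.55% and 2.42% were lower in the same order. Isl1 is on this list and on that of other cardiac regulators, and Tubb3, a neuronal tubulin, was listed at 0 in all 8 libraries.

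Nkx2-5, a homeodomain factor of early heart progenitors, lies on the minus strand of chromosome 17 from 26975609 to 26978510 (NCBI build 37). It was at 0.119 FPKM in E14 ESCs, listed at 0 in CJ7 ESCs, and at 0.419 in Suz12delta and 1.48 in Eednull ESCs. At day 5 Nkx2-5 was at 0.0177 FPKM in E14, 1.19 in Suz12GT, 1.42 in Suz12delta and 1.60 in Eednull cells. Every mutant library stood above every wild-type library at either stage, and Eednull was highest at both.

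Hand2, a basic helix-loop-helix factor of the right ventricle and of other mesoderm and neural crest derivatives, lies on the plus strand of chromosome 8 from 59799780 to 59803314. Hand2 was at 0.0409 FPKM in E14, 0.131 in CJ7, 0.557 in Suz12delta and 0.403 in Eednull ESCs. At day 5 Hand2 was at 0.151 FPKM in E14, 1.97 in Suz12GT, 3.59 in Suz12delta and 2.76 in Eednull. The mutants were again above both wild-type lines, and the day 5 mutants were above all ESC libraries.

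Mef2c, a MADS box factor of the heart that is also used in skeletal muscle, neurons and vessels, lies on chromosome 13 from 83643033 to 83806684. It was listed at 0 in E14, CJ7 and Eednull ESCs and at 1.68 FPKM in Suz12delta ESCs. At day 5 Mef2c was listed at 0 in E14 and Suz12GT, and stood at 1.18 FPKM in Suz12delta and 0.693 in Eednull. 5 of the 8 libraries were thus listed at 0, no fold against wild-type can be given, and both Suz12delta libraries were above the others.

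Tbx5, a T-box factor of the atria, left ventricle and forelimb, lies on chromosome 5 from 120284672 to 120335227. Tbx5 was at 0.0455 FPKM in E14, 0.0275 in CJ7, 0.567 in Suz12delta and 0.166 in Eednull ESCs. At day 5 Tbx5 was at 0.0160 FPKM in E14, 0.136 in Suz12GT, 0.572 in Suz12delta and 0.111 in Eednull. Tbx5 was the lowest regulator in Suz12delta and Eednull cells at day 5, and it was higher in Suz12delta than in the other mutants at both stages.

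Tbx20, a T-box factor of the developing heart and of certain motor neurons of the hindbrain, lies on the minus strand of chromosome 9 from 24527648 to 24578746. Tbx20 was at 0.124 FPKM in E14, 0.317 in CJ7, 0.570 in Suz12delta and 0.90 in Eednull ESCs. At day 5 Tbx20 was at 0.200 FPKM in E14, 2.52 in Suz12GT, 1.46 in Suz12delta and 1.15 in Eednull. Tbx20 was the 1 regulator with its highest value in Suz12GT.

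Myl7 encodes the atrial regulatory myosin light chain and lies on chromosome 11 from 5796640 to 5798785. Myl7 was at 1.76 FPKM in E14, 2.81 in CJ7, 1.25 in Suz12delta and 1.42 in Eednull ESCs. At day 5 Myl7 was at 0.603 FPKM in E14, 0.201 in Suz12GT, 3.22 in Suz12delta and 1.35 in Eednull. The wild-type ESCs were the higher ones, whereas at day 5 the Suz12delta library was highest and Suz12GT lowest of all 8.

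Myl4 encodes the atrial and embryonic essential myosin light chain and lies on chromosome 11 from 104411977 to 104457067. Myl4 was at 1.12 FPKM in E14, 1.35 in CJ7, 2.69 in Suz12delta and 3.27 in Eednull ESCs. At day 5 Myl4 was at 0.235 FPKM in E14, 0.571 in Suz12GT, 0.871 in Suz12delta and 0.572 in Eednull. Both mutant ESC libraries were above both wild-type ESC libraries, and every day 5 library was below every ESC library. The annotation places Gm11661, Gm11663 and Gm11665 within the span of Myl4, and an exon of Gm11665 overlaps one of Myl4 on the opposite strand. Whether the libraries keep strand is not given in the sources used here, so reads of the overlapping part cannot be told apart.

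Tnnt2, cardiac troponin T, lies on chromosome 1 from 137737452 to 137748837. It was listed at 0 in E14 and CJ7 ESCs, and stood at 0.202 FPKM in Suz12delta and 0.401 in Eednull ESCs. At day 5 Tnnt2 was at 0.0207 FPKM in E14, listed at 0 in Suz12GT, and at 0.601 in Suz12delta and 0.196 in Eednull. At both stages Tnnt2 was above 0.1 FPKM in Suz12delta and Eednull only.

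Myh6 encodes the alpha isoform of cardiac myosin heavy chain and lies on chromosome 14 from 55560758 to 55585764. Myh6 was at 0.605 FPKM in E14, 1.10 in CJ7, 0.576 in Suz12delta and 1.36 in Eednull ESCs. At day 5 Myh6 was listed at 0 in E14, and stood at 0.0151 FPKM in Suz12GT, 0.186 in Suz12delta and 0.148 in Eednull. ESC values of the mutants spanned those of the wild types, and all day 5 values were lower than all ESC values. Myh7, the neighbouring and closely similar myosin gene, was at or below 0.762 FPKM throughout, and how reads of the shared sequence were divided is uncertain.

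Actc1, cardiac alpha actin, lies on the minus strand of chromosome 2 from 113873018 to 113879284. Actc1 was at 1.72 FPKM in E14, 3.21 in CJ7, 0.730 in Suz12delta and 1.38 in Eednull ESCs. At day 5 Actc1 was listed at 0 in E14, and stood at 0.936 FPKM in Suz12GT, 3.85 in Suz12delta and 0.888 in Eednull. Wild-type ESCs were above mutant ESCs, and at day 5 the wild type was lowest. The table gives Actc1 a merged locus from 113835337 to 113894060, which also holds Gjd2 and A530058N18Rik. Gjd2, a neuronal connexin, was at 1.54 FPKM in Suz12GT day 5 cells and at or below 0.0885 elsewhere. Actin genes share much coding sequence, so the Actc1 values are uncertain. Acta2, smooth muscle actin, was at 35.1 FPKM in E14, 22.1 in CJ7, 142 in Suz12delta and 66.4 in Eednull ESCs. At day 5 Acta2 was at 11.2 FPKM in E14, 13.8 in Suz12GT, 44.2 in Suz12delta and 28.0 in Eednull. Among ESCs, Acta2 was thus highest where Actc1 was lowest, and at day 5 both were highest in Suz12delta. How reads were divided between them was not tested.

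**Figure D2:**
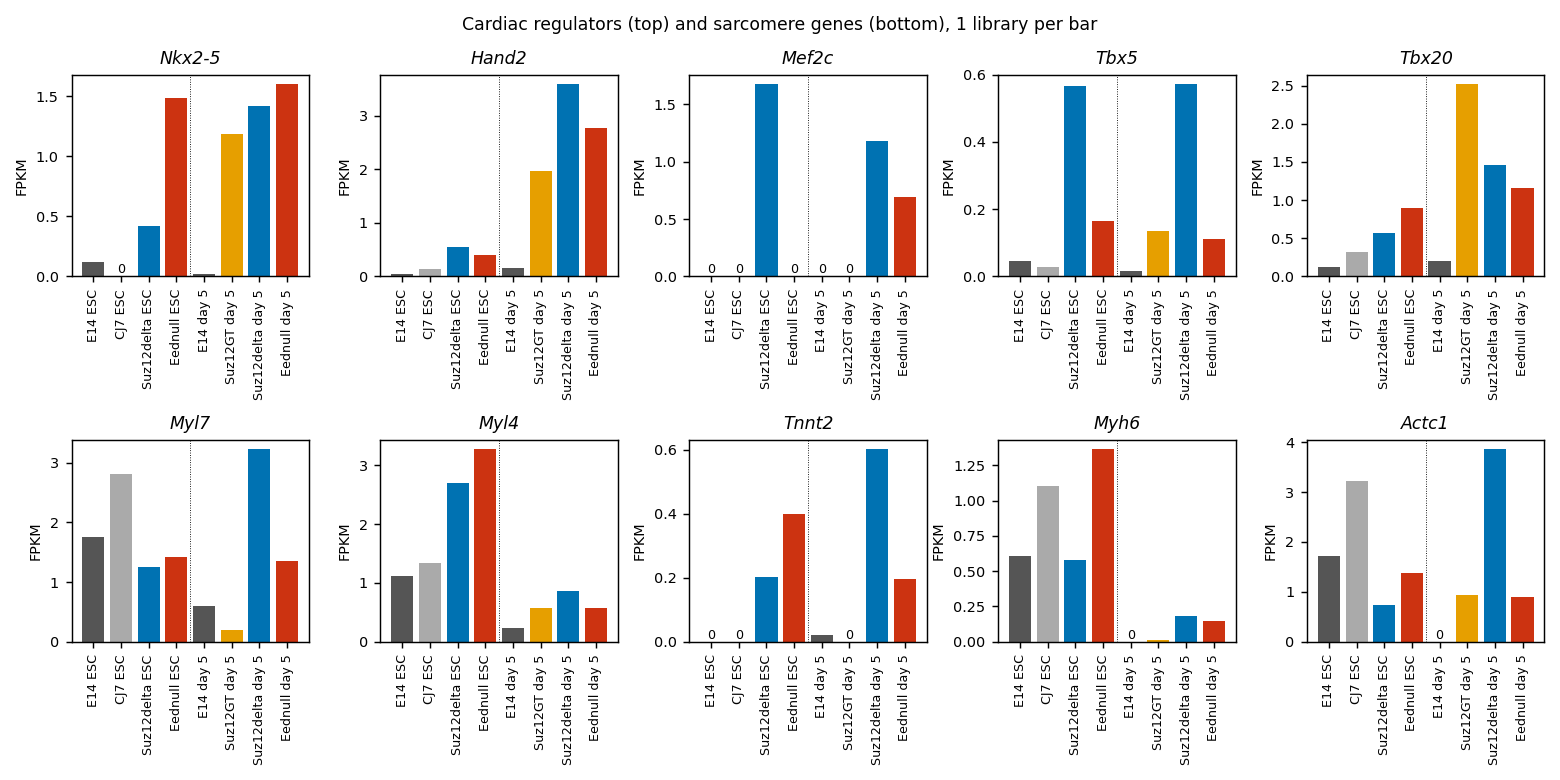
FPKM (y axis, linear and from 0, with a scale per gene) of the 5 regulators (top row) and 5 sarcomere genes (bottom row) in the 8 libraries, 1 bar per library, with ESCs left and day 5 cells right of the dotted line and 0 written where a gene is listed at 0. Nkx2-5, Hand2 and Tbx20 are at 1.15 FPKM or more in all mutant day 5 libraries, and Myl4 and Myh6 are lower at day 5 than in any ESC library.

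Relative to E14, Nkx2-5, Hand2 and Tbx20 were higher in both the Suz12delta and the Eednull ESCs, and the sarcomere genes were mixed. Ratios are log2 of FPKM plus 0.1, which understates changes of low genes, and they were formed where both libraries were above 0 and at least 1 reached 0.1 FPKM. A gene is counted as higher or lower at 2-fold or more. In Suz12delta ESCs, Hand2 had a log2 ratio of 2.22, Tbx5 of 2.20, Tbx20 of 1.58 and Nkx2-5 of 1.24. The sarcomere genes there had log2 ratios of 1.19 for Myl4, -0.06 for Myh6, -0.47 for Myl7 and -1.13 for Actc1. The regulators compared were therefore all higher by 2-fold or more, whereas the sarcomere genes lay on both sides.

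Of the 10 genes, 8 could be compared in Suz12delta ESCs, 5 were higher, where 13.7% of 20042 genes were, and 1 was lower, where 21.4% of genes were. Their median log2 ratio was 1.22 against -0.32 for all genes. Mef2c and Tnnt2 were listed at 0 in E14 and are not in these counts. Hand2 and Tbx5 were under 0.1 FPKM in E14 and entered only because they were higher in the mutant, so the count is a description only. When all libraries were scaled to the same 75th percentile, the median of all genes moved from -0.32 to 0.03, a shift of 0.35, and 0 of the 8 genes remained 2-fold lower. With a pseudocount of 1 FPKM, 0 of the 8 were 2-fold higher. The corresponding shift was 0.16 for Eednull ESCs, 0.21 for CJ7, -0.15 for Suz12delta at day 5 and 0.13 for the change in E14.

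In Eednull ESCs, the log2 ratio to E14 was 2.85 for Nkx2-5, 2.16 for Tbx20, 1.84 for Hand2 and 0.87 for Tbx5. Among the sarcomere genes it was 1.46 for Myl4, 1.05 for Myh6, -0.29 for Myl7 and -0.30 for Actc1. Nkx2-5 led in Eednull ESCs and Hand2 in Suz12delta ESCs. 5 of the 8 genes compared were higher, where 11.5% of 20237 genes were, and none was lower, where 9.71% of genes were. The median log2 ratio was 1.26 against -0.06 for all genes. The same 2 regulators entered only through the mutant library, and with a pseudocount of 1 FPKM 2 of the 8 genes were higher.

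The 2 wild-type lines gave a measure of how far ESC libraries of unmutated cells can differ. Line, background and, by the names, batch cannot be told apart in it. Between CJ7 and E14 ESCs, 0 of the 6 genes compared were 2-fold higher, where 6.69% of 19601 genes were, and 0 were lower, where 11.2% were. The log2 ratios lay between 0.24 for Myl4 and 0.90 for Tbx20, all above the median of -0.17 for all genes. All 6 were higher in CJ7 than in E14, by less than 2-fold on this scale, and 2 of the 6 passed 2-fold with a pseudocount of 0.01 FPKM and 2 after scaling. Without a pseudocount, the ratio of CJ7 to E14 was 3.20 for Hand2 and 2.56 for Tbx20. Nkx2-5 was listed at 0 in CJ7.

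With CJ7 as the wild type, Hand2, Tbx5 and Tbx20 could be compared and were again higher in both mutants, fewer of the 10 genes were 2-fold higher and more were 2-fold lower. In Suz12delta ESCs the log2 ratio to CJ7 was 2.39 for Tbx5, 1.51 for Hand2 and 0.69 for Tbx20, and it was -1.11 for Myl7 and -2.0 for Actc1. 2 of 7 genes were higher, where 17.2% of 20238 genes were, and 2 were lower, where 18.6% were. In Eednull ESCs, which by name share a batch with CJ7, it was 1.26 for Tbx20, 1.12 for Hand2, 1.06 for Tbx5, 1.22 for Myl4 and -1.16 for Actc1. 4 of 7 genes were higher, where 11.8% of 20987 genes were, and 1 was lower, where 5.71% were. Within that batch Hand2 and Tbx20 were thus each above 2-fold. Tbx5 was too, but at 0.0275 FPKM in CJ7 it entered the comparison with either mutant only through the mutant, so its place in these counts is a description only. Myl7 and Actc1 were below CJ7 in both mutants.

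Markers of fibroblasts, the feeder cells of these cultures, moved with the ESC comparisons. All 12 fibroblast markers, among them Col1a1, Col1a2, Col3a1 and Thy1, were higher by 2-fold or more in Suz12delta ESCs than in E14, 5 of 12 in Eednull ESCs and 3 of 12 in CJ7. Of all genes, 13.7%, 11.5% and 6.69% were higher in the same order. Their summed FPKM was 89.9 in E14, 115 in CJ7, 605 in Suz12delta and 273 in Eednull ESCs, and none of the 12 was listed at 0. The sum of 8 smooth muscle markers was 91.8, 70.7, 410 and 205 FPKM in the same order, with 7 of 8 higher in Suz12delta and 5 of 8 in Eednull ESCs. ESC markers were lower in the same Suz12delta library, 5 of 8 by 2-fold or more with a median log2 ratio of -1.36 to E14, against 1 of 8 and -0.13 in Eednull. Of all genes, 21.4% were lower in Suz12delta ESCs and 9.71% in Eednull ESCs. Hand2, Tbx5 and Mef2c had their highest ESC values in the Suz12delta library, where both sums were highest. Nkx2-5 and Tbx20 had theirs in Eednull. The part of feeder cells, or of a smaller share of ESCs, in the heart gene values was not tested.

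At day 5, Nkx2-5, Hand2 and Tbx20 were higher in every mutant than in the wild type. Against E14 at day 5, the log2 ratio of Nkx2-5 was 3.45 in Suz12GT, 3.69 in Suz12delta and 3.85 in Eednull. That of Hand2 was 3.04, 3.88 and 3.51 in the same order, and that of Tbx20 was 3.13, 2.38 and 2.06. Tbx5 had 1.03, 2.53 and 0.86, so that only its Suz12delta value was far from the 2-fold line. The 3 comparisons share the E14 library, whose low values of Nkx2-5 and Hand2 enter all of them.

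The sarcomere genes differed between the mutants at day 5. The log2 ratio of Myl7 was -1.22 in Suz12GT, 2.24 in Suz12delta and 1.05 in Eednull. Myl4 had 1.0, 1.54 and 1.01, and Tnnt2 had 2.54 in Suz12delta and 1.3 in Eednull. Actc1 and Myh6 were listed at 0 in E14 at day 5 and have no ratio. The summed FPKM of the 5 sarcomere genes was 0.858 in E14, 1.72 in Suz12GT, 8.74 in Suz12delta and 3.16 in Eednull, whereas that of the 5 regulators was 0.385, 5.81, 8.22 and 6.32. The Suz12GT sum of regulators was near that of Eednull, and its sum of sarcomere genes lay between those of the wild type and Eednull. Most of the sarcomere sum in Suz12delta came from Actc1, at 3.85 FPKM, and Myl7, at 3.22. In ESCs the sarcomere sum was 5.21 FPKM in E14, 8.47 in CJ7, 5.45 in Suz12delta and 7.83 in Eednull. The regulator sum in ESCs was 0.329, 0.475, 3.79 and 2.95 FPKM in the same order.

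In Suz12GT day 5 cells, 5 of the 6 genes compared were higher, where 13.2% of 19475 genes were, and 1 was lower, where 2.42% of genes were. In Suz12delta cells 7 of 7 were higher, where 20.9% of 19770 genes were, and 0 lower, where 7.76% were. In Eednull cells 6 of 7 were higher, where 16.8% of 19514 genes were, and 0 lower, where 9.55% were. The median log2 ratio of the genes compared was 2.03, 2.53 and 1.3, against 0.12, 0.21 and 0.05 for all genes. Nkx2-5, Tbx5 and Tnnt2 were under 0.1 FPKM in E14 at day 5 and entered only through the mutants. Myl4 in Suz12GT lay on the 2-fold line and, with Tbx5, fell under it when the libraries were scaled to the same 75th percentile, which left 3 of 6. With a pseudocount of 1 FPKM, 3 of 6 genes were higher in Suz12GT, 4 of 7 in Suz12delta and 2 of 7 in Eednull, and Nkx2-5 and Hand2 were among them in each.

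**Figure D3:**
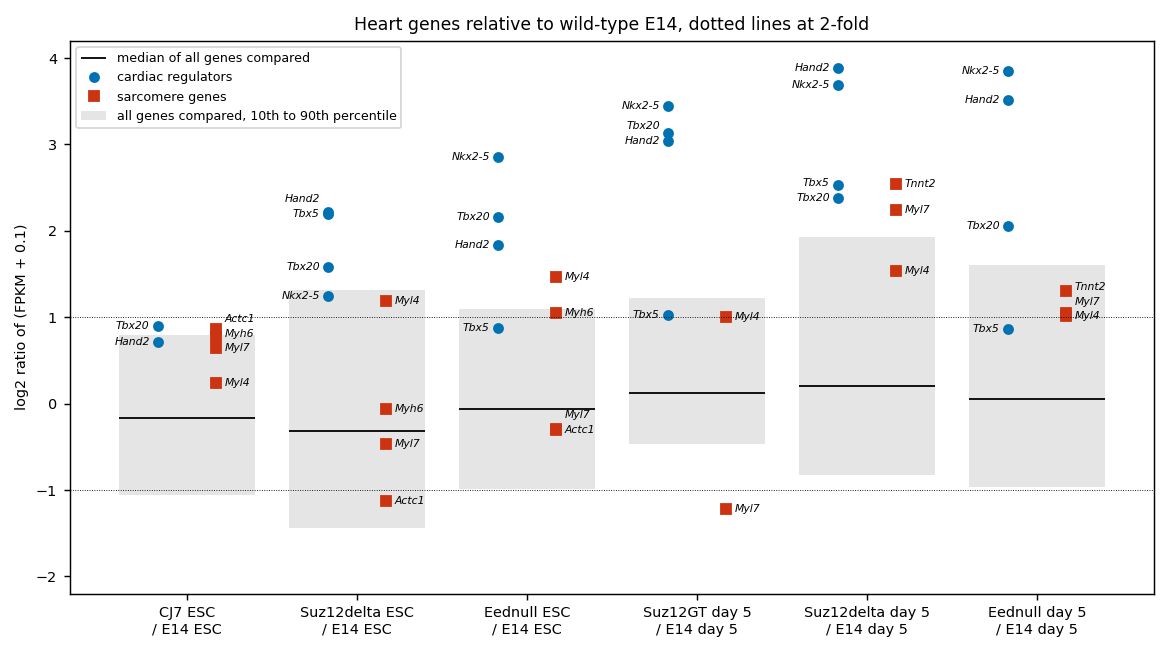
Log2 ratio of FPKM plus 0.1 to the E14 library of the same stage (y axis) for the regulators (circles) and sarcomere genes (squares) that were above 0 in both libraries, with 1 column per comparison, the median of all genes compared (line) and their 10th to 90th percentile (grey). At day 5 Nkx2-5, Hand2 and Tbx20 lie above the grey range in each mutant, while Myl7 lies below it in Suz12GT.

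In E14 wild-type cells the regulators stayed at 0.200 FPKM or less through differentiation and the sarcomere genes were lower at day 5 where they had been detected in ESCs. From E14 ESCs to E14 day 5, the log2 ratio was 0.83 for Hand2, 0.42 for Tbx20, -0.90 for Nkx2-5, -1.41 for Myl7 and -1.87 for Myl4. Myh6 and Actc1, at 0.605 and 1.72 FPKM in ESCs, were listed at 0 at day 5. 0 of the 5 genes compared were 2-fold higher, where 15.3% of 19020 genes were, and 2 were lower, where 21.3% were, with a median of -0.90 against -0.17 for all genes.

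In Suz12delta all 10 genes could be compared between the stages. Hand2 had a log2 ratio of 2.49, Actc1 of 2.25, Nkx2-5 of 1.55, Myl7 of 1.3, Tbx20 of 1.22 and Tnnt2 of 1.21. Tbx5 was level at 0.01, Mef2c had -0.47, and Myh6 (-1.24) and Myl4 (-1.52) were lower at day 5. 6 of 10 genes were higher, where 24.6% of 20841 genes were, and 2 were lower, where 9.65% were. The median of the 10 was 1.22 and that of all genes was itself 0.42, and scaling moved the latter by -0.37 and left 3 genes higher.

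In Eednull cells Hand2 was higher at day 5, with a log2 ratio of 2.51, and Mef2c went from listed at 0 to 0.693 FPKM and has no ratio. Tbx20 had 0.32, Nkx2-5 0.10, Myl7 -0.07, Tbx5 -0.34, Actc1 -0.58 and Tnnt2 -0.76, while Myl4 (-2.32) and Myh6 (-2.56) were lower. 1 of 9 genes was higher, where 16.2% of 20852 genes were, and 2 were lower, where 16.6% were. The median was -0.34 against 0.01 for all genes. Nkx2-5 was thus near its day 5 level already in Eednull ESCs. For Hand2, day 5 values were above ESC values in E14, Suz12delta and Eednull, by log2 ratios of 0.83, 2.49 and 2.51.

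Fibroblast and smooth muscle markers also stood higher in the mutants at day 5. 8 of the 9 fibroblast markers compared were higher in Suz12GT than in E14, 9 of 9 in Suz12delta and 9 of 9 in Eednull. Of all genes, 13.2%, 20.9% and 16.8% were higher in the same order, and 2.42%, 7.76% and 9.55% were lower. These shares also apply to the smooth muscle and ESC marker counts below. Summed values of the fibroblast markers were 2.15 FPKM in E14, 14.3 in Suz12GT, 111 in Suz12delta and 59.8 in Eednull. Fap, Prrx1 and Lum were listed at 0 in E14, and Fap in Suz12GT. Dcn, Postn, Thy1 and Col6a3 were under 0.1 FPKM in E14 and entered only through the mutants, so the fibroblast counts are a description only. The smooth muscle sum was 21.4, 30.4, 192 and 109 FPKM, with 2 of 6, 7 of 7 and 7 of 7 markers higher, and Myh11, smooth muscle myosin, was listed at 0 in E14 and Suz12GT. The order of both sums, with Suz12delta first, then Eednull, Suz12GT and E14, was also that of the sarcomere sum, of the regulator sum and of Hand2. It was not that of Tbx20, which was highest in Suz12GT, or of Nkx2-5, which was highest in Eednull. From ESCs to day 5 of Suz12delta the fibroblast sum went from 605 to 111 FPKM. Of the 10 heart genes, 6 were higher by 2-fold or more at day 5, where 24.6% of all genes were, and 3 after scaling. Hand2, from 0.557 to 3.59 FPKM, changed the most. Myl4, from 2.69 to 0.871 FPKM, and Myh6, from 0.576 to 0.186, were lower, where 9.65% of all genes were. Mef2c and Tbx5 changed by less than 2-fold. In Eednull the fibroblast sum went from 273 to 59.8 FPKM. Of the 9 heart genes compared there, 1 was higher, where 16.2% of all genes were, and 2 were lower, where 16.6% were. Of the ESC markers compared with E14 at day 5, 4 of 5 were higher in Suz12GT (median log2 ratio 2.24), 5 of 6 in Suz12delta (2.21) and 3 of 5 in Eednull (1.08), with 0, 1 and 1 lower. Fgf4 was under 0.1 FPKM in E14 and entered in Suz12delta only through the mutant. Sox2 was the lower one in Suz12delta and Eednull, and Nanog, Dppa3 and Fgf4 were listed at 0 in Eednull. The ESC marker sum was 21.5 FPKM in E14, 28.6 in Suz12GT, 14.7 in Suz12delta and 9.18 in Eednull. The part of any of these cells in the heart gene values was not tested.

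The defining factors of skeletal muscle were near 0. Myod1, Myf5 and Myog did not exceed 0.0922 FPKM in any library, and Acta1, skeletal actin, and Myh3, embryonic myosin, were listed at 0 in all 8. So was the neuronal Tubb3, and a 0 in every library may be a failed estimate. The sum of the 14 skeletal muscle markers was 47.1 to 110 FPKM in ESCs and 4.69 to 12.7 at day 5. Most of the ESC sum came from Mylpf, a fast muscle light chain, at 40.6 to 98.7 FPKM. At day 5, 0 of 3 markers compared were higher in Suz12GT, 2 of 4 in Suz12delta and 1 of 3 in Eednull, and none was lower. Of all genes, 13.2%, 20.9% and 16.8% were higher in the same order, and 2.42%, 7.76% and 9.55% were lower. Tnnt3 was higher in Suz12delta and Eednull, with log2 ratios to E14 of 3.35 and 2.65, and was listed at 0 in Suz12GT. Tnnt1 was higher in Suz12delta, with a log2 ratio of 1.98. Tnni2 was listed at 0 in E14 and has no ratio, and it stood at 1.02 FPKM in Suz12delta. Mylpf changed by less than 2-fold in each mutant.

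Other genes of the heart programme, listed from general knowledge, moved in both directions. Of 26 other cardiac regulators, 6 of 17 compared were higher and 1 lower in Suz12GT at day 5, 7 of 19 higher and 3 lower in Suz12delta, and 7 of 18 higher and 4 lower in Eednull. Of all genes, 13.2% were higher and 2.42% lower in Suz12GT, 20.9% and 7.76% in Suz12delta, and 16.8% and 9.55% in Eednull, which are the shares to set beside the day 5 counts of the other heart lists too. Their median log2 ratios were 0.49, 0.74 and 0.38. Tbx3, a T-box factor of the conduction system that is also expressed in ESCs, was at 0.0815 FPKM in E14 and at 7.13, 14.5 and 10.4 in the mutants, with log2 ratios of 5.31, 6.33 and 5.86. Tbx2, its close relative, was at 0.242 FPKM in E14 and at 2.64, 7.35 and 5.06 in the mutants.

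Gata4, a zinc finger factor of heart and endoderm, was listed at 0 in E14 at day 5 and stood at 11.6, 10.3 and 12.1 FPKM in Suz12GT, Suz12delta and Eednull, and is named here because of those values. Gata5 was at 0.102 FPKM in E14, 0.320 in Suz12GT, 5.85 in Suz12delta and 4.14 in Eednull, with log2 ratios of 4.88 and 4.39 in the last pair. Gata6 was at 0.653 FPKM in E14 and at 2.18, 5.82 and 4.07 in Suz12GT, Suz12delta and Eednull. Its log2 ratio was 1.60 in Suz12GT. Tbx18, a factor of the epicardium, was at 0.00611 FPKM in E14 and at 0.496, 1.72 and 1.56 in the same mutants. Its log2 ratio was 3.97 in Eednull. Lower genes included Hey1, a Notch target, at 12 FPKM in E14 and 2.59 and 2.39 in Suz12delta and Eednull, and the lowest in Suz12GT was, of those reaching 1 FPKM there or in E14, Hey2 at -0.10.

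Of 23 other cardiac sarcomere genes, 3 of 10 compared were higher and 0 lower in Suz12GT at day 5, 7 of 12 higher and 1 lower in Suz12delta, and 6 of 13 higher and 0 lower in Eednull. Their median log2 ratios were 0.32, 1.2 and 0.93. Tnni1, slow skeletal and fetal cardiac troponin I, was at 0.124 FPKM in E14 and at 5.53 in Suz12delta and 1.21 in Eednull. Myl3, the ventricular essential light chain, was at 0.138 FPKM in E14 and at 2.28 and 4.85 in the same mutants. Des, desmin, was at 0.382 FPKM in E14 and at 6.63 and 3.32. Among genes at 1 FPKM or more in Suz12GT or E14, the highest of the list in Suz12GT was Nebl, nebulette, at 5.42 FPKM against 1.15 in E14 (log2 ratio 2.15), followed by Tpm1 at 0.41 and Nexn at -0.44, with Tnni3, cardiac troponin I, lowest at -0.78. By the same minimum, Nexn was the lowest in Suz12delta at -1.19 and Nebl in Eednull at -0.50.

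Of 14 hormone and calcium handling genes, 4 of 11 were higher in Suz12GT, 3 of 11 in Suz12delta and 4 of 10 in Eednull, and none was lower, where 20.9% of all genes were higher in Suz12delta. Their median log2 ratios were 0.80, 0.92 and 0.62. Cacna1c, the L-type calcium channel, had 1.48, 1.05 and 0.67, and Slc8a1, the sodium-calcium exchanger, had 0.59, -0.62 and 0.28. Hcn4, the pacemaker channel, had 1.53 in Suz12GT and -0.79 in Eednull. Gja1, a gap junction connexin, had -0.04, 1.3 and 1.25. Atp2a2, the calcium pump of the sarcoplasmic reticulum, had 0.08 in Suz12delta.

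**Figure D4:**
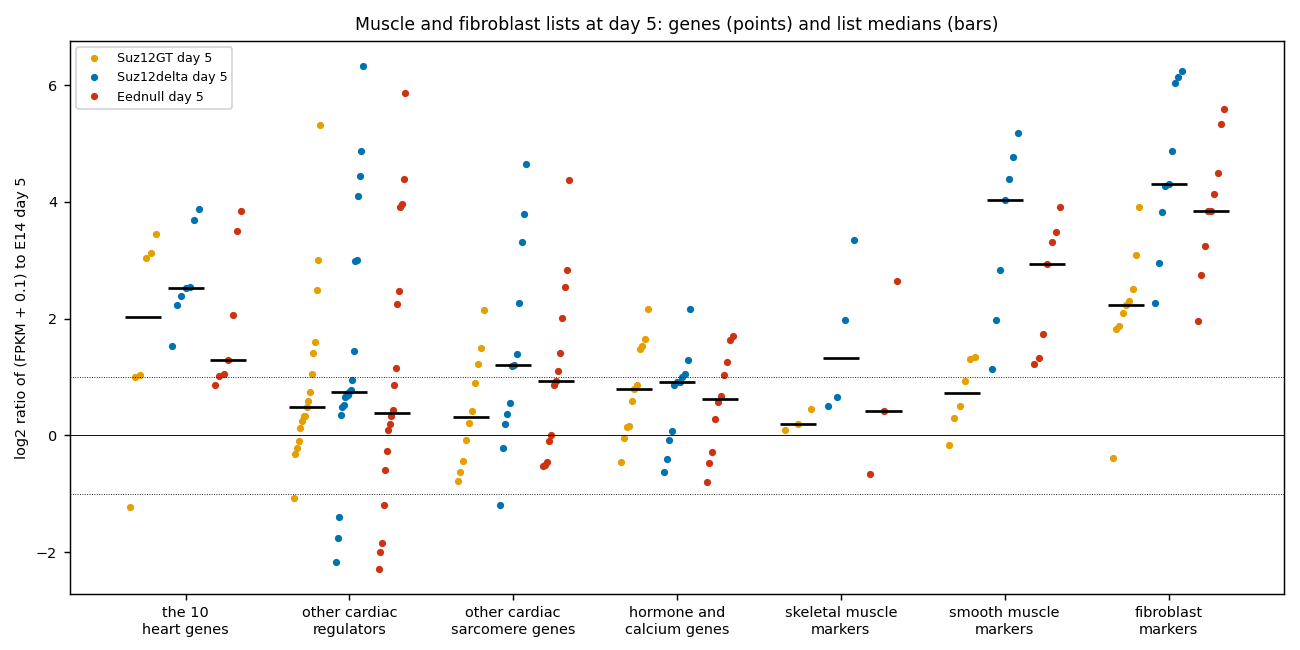
Log2 ratio of FPKM plus 0.1 to E14 at day 5 (y axis) for each gene (points, coloured by mutant) of 7 gene lists (x axis), with the list medians as bars and dotted lines at 2-fold. For those of the 10 heart genes compared, which were 6, 7 and 7, the median is 2.03 in Suz12GT, 2.53 in Suz12delta and 1.3 in Eednull. Genes listed at 0 in either library are left out of every list. In Suz12GT the other lists of heart genes have medians of 0.32 to 0.80 over the genes compared.

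The same lists were compared in ESCs, where 13.7% of all genes were higher and 21.4% lower in Suz12delta, and 11.5% and 9.71% in Eednull. Of the other cardiac regulators, 8 of 22 compared were higher and 3 lower in Suz12delta against E14, and 8 of 24 higher and 1 lower in Eednull, with medians of 0.60 and 0.66. Of the other sarcomere genes, 4 of 12 were higher and 4 lower in Suz12delta, and 2 of 12 higher and 1 lower in Eednull. Of the hormone and calcium handling genes, 3 of 10 were higher and 2 lower in Suz12delta, and 4 of 9 higher and 0 lower in Eednull.

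Genes with the most similar pattern over the 8 libraries were sought for the 5 heart genes above 0 in all of them, among 16079 genes that were also above 0 in all 8 and at 1 FPKM or more in at least 1. Likeness is the root mean square difference of log2(FPKM + 0.1) after each gene was centred on its own mean, and it is given as a description. The closest genes to Hand2 were 4930506M07Rik at 0.226 and Maf, a bZIP transcription factor, at 0.377. For Tbx20 they were Pax9, a paired box factor, at 0.312 and Kcnq5, a potassium channel, at 0.414. Pax9 shared with Tbx20 the highest value in Suz12GT, at 2.0 FPKM against 0.117 in E14 at day 5. For Tbx5 they were Irf5 at 0.265 and Tmem37 at 0.299, both with their 2 highest values in the Suz12delta libraries. Those of Myl7 were Ctf1, a cytokine gene, at 0.326 and Tmem59l at 0.436, and those of Myl4 were Myadm at 0.231 and Ptger4, a prostaglandin receptor, at 0.249. Myadm was at 33.1 to 64.2 FPKM in ESCs and 8.36 to 25.6 at day 5, so the pattern of Myl4 was shared by a gene many times more abundant.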

How the data were processed

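RNA-seq of 8 mouse libraries was used, 1 per condition. Per the study's methods and the submitters' processing notes, the authors aligned reads to NCBI build 37 (mm9) with Bowtie 0.12.7 and TopHat 1.3.2, using an annotation based on Ensembl, and deposited gene values in FPKM made with Cufflinks 1.2.1 and Cuffdiff, with correction for bias and for reads mapping to several places. Such correction divides reads of similar genes by a model, so values of actin and myosin genes are estimates. The 8 columns were matched to the labels by name, and 0 columns of samples were left unused. Sequencing used either a GA-2 or a HiSeq instrument, and which library used which is not given in the sources used here. The depth in reads is unknown. Single-read steps were looked for in values up to 0.5 FPKM, but the commonest ratio between 2 libraries covered at most 2.35% of low genes, so relative depth was not derived.

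Log2 ratios of the FPKM values, with 0.1 added to each, were taken over genes above 0 in both libraries and at 0.1 FPKM or more in at least 1, without rescaling, and a ratio of 2-fold or more was counted. No p-value is given. The calculation was tested on simulated data. The 10 genes, the gene lists and the rules were chosen with earlier results of these data known. The lists were other cardiac regulators, other cardiac sarcomere genes, hormone and calcium handling genes, and markers of ESCs, motor neuron differentiation, skeletal muscle, smooth muscle and fibroblasts. Tnnc1 was left out because it has 2 rows. Named from each heart list were the 3 highest and the 1 lowest ratio in each day 5 comparison among genes at 1 FPKM or more in 1 of the libraries. Named besides were the targeted genes, the 2 genes closest in pattern to each heart gene above 0 in all libraries, marker genes, and genes that share sequence or a locus with a heart gene. The alternatives were CJ7 as the wild-type ESC, a minimum of 1 FPKM or none, a pseudocount of 1 or 0.01, and libraries scaled to an equal 75th percentile, taken over the 17842 genes that were never at 0. Coordinates of genes follow GENCODE vM1 (NCBI build 37). Promoter sequences are from RefSeq (GRCm38.p6) and were placed on NCBI build 37 by exact match. Python 3.11.15, NumPy 2.4.6, pandas 2.3.3 and Matplotlib 3.10.9 were used.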

Additional observations from a re-analysis of the deposited data

Results flagged for a closer look

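Myl7 moved in opposite directions in different lines, by more than 2-fold each way with a pseudocount of 0.1 FPKM and no scaling. The difference between the lines was not tested because each had 1 library. At day 5 its log2 ratio to E14 was -1.22 in Suz12GT, where it stood at 0.201 FPKM, against 2.24 in Suz12delta and 1.05 in Eednull. These 3 comparisons share the E14 library. From ESCs to day 5 the log2 ratio of Myl7 was -1.41 in E14 and 1.3 in Suz12delta, which have no library in common. With a pseudocount of 1 FPKM the day 5 ratios to E14 were -0.42 in Suz12GT, 1.40 in Suz12delta and 0.55 in Eednull. The changes from ESCs were then -0.79 in E14 and 0.91 in Suz12delta. Scaling to the same 75th percentile gave 0.94 for the change in Suz12delta. The fibroblast marker sum at day 5 was 14.3 FPKM in Suz12GT, 111 in Suz12delta and 59.8 in Eednull, and its part in the Myl7 values was not tested.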

How the results depend on the processing

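27 summary values were recomputed, the counts of heart genes 2-fold higher or lower and their median log2 ratio in 9 comparisons. Without a minimum, 1 more gene entered for the change in E14, whose median went from -0.90 to -0.61, and 1 more for CJ7, whose median went from 0.74 to 0.71. Nkx2-5 and Hand2 were 2-fold or more above E14 in all 3 mutants at day 5 under both other pseudocounts and scaling, and CJ7 has no day 5 library. A minimum decides only which genes enter, so the other minimums could not change these ratios. Nkx2-5 passed the minimum of 0.1 FPKM only through the mutants. A pseudocount of 1 damped these low genes most. Against E14 it gave 0 higher, 0 lower and a median of 0.41 in Suz12delta ESCs, 2 higher and 0.49 in Eednull ESCs, 3 higher, 0 lower and 0.73 in Suz12GT at day 5, 4 higher and 1.04 in Suz12delta, and 2 higher and 0.55 in Eednull. From ESCs to day 5 it gave 0 lower and -0.14 in E14, and 2 higher, 0 lower and 0.53 in Suz12delta. A pseudocount of 0.01 gave medians of 3.04, 4.32 and 2.47 in Suz12GT, Suz12delta and Eednull at day 5, 2 higher in CJ7, and 1 higher and -1.53 for the change in E14. A minimum of 1 FPKM left fewer genes and reversed the median of Suz12delta ESCs to -0.47 over 3 genes, with 1 higher. It gave 3 higher in Eednull ESCs, 3 higher, 0 lower and 3.13 in Suz12GT, 4 higher in Suz12delta at day 5, 2.79 in Eednull, -1.64 for the change in E14, and 1 lower for that in Suz12delta. Scaling gave 0 lower in Suz12delta ESCs, 2 higher in CJ7, 3 higher in Suz12GT and 3 higher for the change in Suz12delta. With CJ7 as the wild type, 2 were higher and 2 lower in Suz12delta ESCs and 1 was lower in Eednull ESCs. Apart from the smaller number of genes under the higher minimum, the cause was not tested. No paired analysis was possible because the values reported come from no test, and the changes from ESCs to day 5 are given within each of the 3 lines. Depth in reads is unknown, so how far counting error reaches at these low levels could not be given.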
